A study of Oryza sativa with 7 samples.

Results

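Seedlings of 2 rice cultivars (Oryza sativa), Nagina 22 (N22) and IR64, were compared after desiccation by whole genome bisulphite sequencing, and the comparison was set beside the same cultivars without stress. The members described here are 100 bp bins of the 12 rice chromosomes whose methylation level differed between N22 and IR64 under desiccation but was not called different between N22 and IR64 in the control libraries. Of 1055594 bins tested under desiccation, 35475 were called different (3.36%), and 12514 of these were tested and not called in the control pair. N22 is a drought tolerant cultivar and IR64 is sensitive to drought and salinity. In the desiccation libraries the seedlings of N22 and of IR64 lay on dry filter paper, and in the control libraries of N22 and of IR64 they stood in RO water. How long the desiccation lasted is not given in the sources used here. Each of the 7 groups of the series, which also hold IR64 salinity, Pokkali salinity and Pokkali control, had 1 library. The control DNA was a pool of 3 biological replicates, and whether the stressed DNA was pooled is not given in the sources used here. Every test below therefore compares the reads of particular libraries, not conditions. The intervals treat bins as independent, though 21.1% of the 12514 bins had another of them within 10 bins. The errors treat each cytosine of a read as a separate observation. Neither covers variation between plants or libraries.

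Plant DNA carries methylated cytosines (mCs) in 3 contexts set by the following bases, CG, CHG and CHH (H stands for any base but G). CG methylation is copied at each DNA replication by a maintenance methyltransferase of the MET1 type, and CHG methylation is kept by chromomethylases that bind methylated histone H3. CHH methylation has no symmetrical partner on the opposite strand, and it is set again after replication by chromomethylases and by the RNA-directed pathway, in which small RNAs guide DRM-type methyltransferases. In rice, methylation in all contexts is densest in transposons and repeats, and CHH methylation is high in short elements near genes.

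The methylation level of a bin was the share, in percent, of the reads at its mCs that were methylated. Reads of a bin were summed over its mCs, so a read that covers several of them counts at each. A difference is the level in N22 minus the level in IR64, in percentage points. A bin was tested where 3 or more mCs were listed in both libraries, by Fisher's exact test on the summed reads with Benjamini-Hochberg adjustment over all tested bins. It was called at a difference of 20 points or more and an adjusted p of 0.01 or less. The deposited tables list only cytosines that passed the methylation call, so a cytosine that is not listed has no value. The libraries listed 16101368 mCs in N22 desiccation, 16522435 in IR64 desiccation, 18144722 in N22 control and 14844134 in IR64 control, at mean depths of 17.0, 15.7, 18.3 and 16.1 reads. N22 desiccation shared 84.3% of its listed mCs with N22 control and 67.9% with IR64 desiccation, so the cultivar labels matched the lists of positions.

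Over mCs listed in all 4 libraries, N22 was higher than IR64 in every context and in both pairs. The CG level was 86.9% in N22 and 85.3% in IR64 under desiccation, against 88.6% in N22 and 85.6% in IR64 in control. The CHH level was 40.6% in N22 and 39.3% in IR64 under desiccation, against 42.5% in N22 and 39.0% in IR64 in control. The gap between the cultivars was thus narrower under desiccation than in control, at 1.24 against 3.49 points in CHH, 2.94 against 3.82 points in CHG and 1.59 against 3.06 points in CG. N22 control had the highest level in each context, and a threshold on the control pair is read against that library. The median bin difference was 0.943 points under desiccation and 2.06 points in control.

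Most bins called under desiccation were already different in control. In 18565 of the 35475 called bins (52.3%) the control pair was called in the same direction, and in 10 bins it was called in the opposite direction. A further 4386 bins (12.4%) were not tested in control. The 12514 desiccation-only bins made up 35.3% of the calls, and 8021 of them (64.1%, Wilson 95% interval 63.3 to 64.9) were higher in N22 under desiccation. The background of calls was 2.46% of tested bins higher and 0.903% lower in N22. Because these bins were chosen by their values, their direction and size are descriptions.

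Bins uncalled in control often had a control difference all the same. Of the 12514 bins, 2498 (19.96%) had a control difference of 20 points or more in the same direction that missed the adjusted p. A further 6192 (49.5%) had a control difference of 10 to 20 points in the same direction. The control difference was under 10 points in 3626 bins, termed control-flat, of which 2763 had the sign of the desiccation difference. An opposite control difference of 10 points or more was found in 198 bins, and it reached 20 points in 23 of them.

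The contexts differed in how much of the call was already present in control. In CG, 7813 of 25444 called bins (30.7%) were desiccation-only, and 1946 (7.65%) were control-flat. In CHG, 5125 of 12665 (40.5%) were desiccation-only and 1248 (9.85%) were control-flat. In CHH, 2649 of 4280 (61.9%) were desiccation-only and 1266 (29.6%) were control-flat, the largest shares of the 3 contexts. Called bins were 3.36% of those tested under desiccation and 3.53% of those tested in control in CG, 2.59% and 2.91% in CHG, and 2.23% and 3.84% in CHH.

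**Figure D1:**
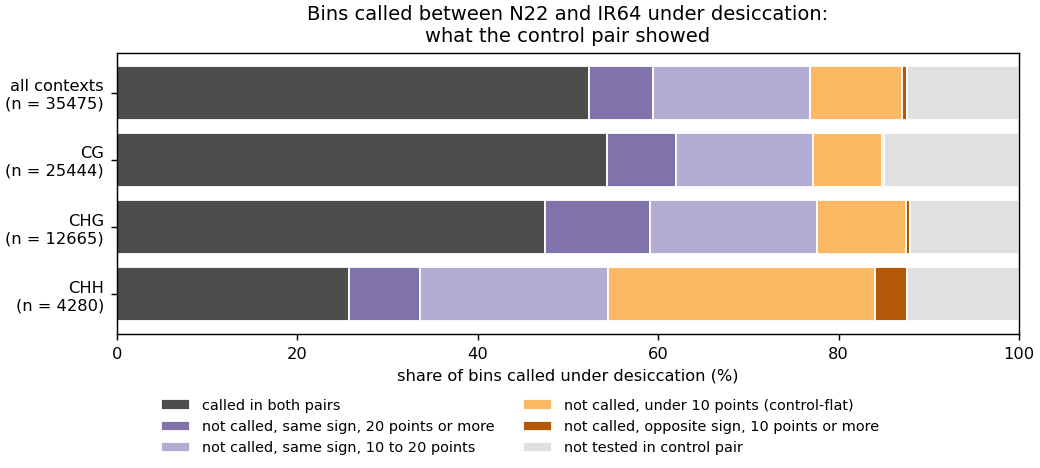
Each bar splits the bins called between N22 and IR64 under desiccation by what the N22 and IR64 control libraries showed, as a share in percent, for all contexts and for CG, CHG and CHH alone. Control-flat bins take 7.65% of the CG calls and 29.6% of the CHH calls.

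The direction of the desiccation-only bins also differed between contexts. In CHG, 3756 of 5125 bins (73.3%, interval 72.1 to 74.5) were higher in N22, and in CG 4763 of 7813 (61.0%, interval 59.9 to 62.0). In CHH, 1273 of 2649 (48.1%, interval 46.2 to 49.96) were higher in N22, and among the control-flat CHH bins 503 of 1266 were (39.7%, interval 37.1 to 42.5). Of all bins tested under desiccation, those called higher and lower in N22 were 2.37% and 0.987% in CG, 2.03% and 0.561% in CHG, and 1.2% and 1.03% in CHH. Median levels in the control-flat CHH bins were 47.6% in N22 desiccation, 55.3% in IR64 desiccation, 51.9% in N22 control and 50.5% in IR64 control.

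A stricter class was set by testing the desiccation difference against the control difference. Core bins were control-flat bins in which the desiccation difference minus the control difference, over mCs listed in all 4 libraries, was 20 points or more with an adjusted p of 0.01 or less (z test of 2 differences of binomial proportions). Of 909339 bins with enough mCs in all 4 libraries, 1339 passed this test (0.147%), 200 with a positive value (0.022%) and 1139 with a negative value (0.125%). The core held 110 bins, 37 higher and 73 lower in N22 under desiccation. A share of 33.6% was therefore higher in N22 (interval 25.5 to 42.9), against 64.1% of all desiccation-only bins. With CG alone 29 core bins were found (13 higher, 16 lower), with CHG alone 6 (3 higher, 3 lower) and with CHH alone 196 (54 higher, 142 lower). The test was passed by 0.0449% of bins in CG (0.0116% with a positive and 0.0332% with a negative value), 0.0199% in CHG (0.00587% and 0.014%) and 1.68% in CHH (0.179% and 1.5%).

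All core calls rested on treating each cytosine of a read as a separate observation. When the reads of a bin were divided by its shared mCs per strand, so that a molecule counted about once (an alternative added after the data were seen), 6890 bins were called under desiccation and 2199 were desiccation-only. Control-flat bins then numbered 53 and core bins 0. The smallest adjusted p of the difference of differences was then 0.117. Of the 110 core bins, 31 still had an unadjusted p under 0.05 and 5 were still called under desiccation. The 53 control-flat bins included 48 that were also control-flat with all reads. Their median desiccation difference was 38.8 points in size, and their median control difference was 4.44 points in the same direction. Among bins tested in both pairs, desiccation-only bins were 40.1% of the calls when a molecule counted about once, close to the 40.3% with all reads.

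**Figure D2:**
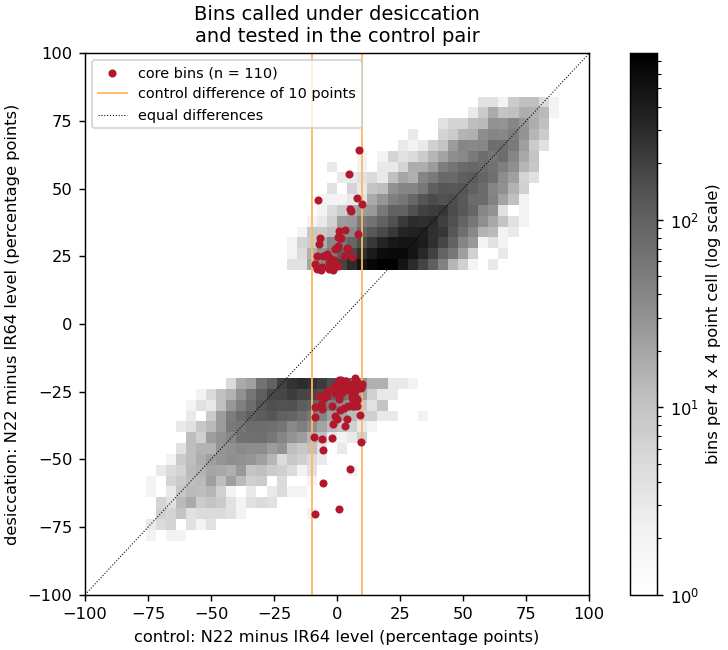
Bins called under desiccation and tested in control, by their control difference (x axis) and desiccation difference (y axis), N22 minus IR64 in percentage points; grey cells give the number of bins on a log scale and red points are the 110 core bins. Most bins follow the line of equal differences, and 73 of the core bins lie in the lower band and 37 in the upper.

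Levels in the core bins spread widely within each library. In the 37 core bins higher in N22, levels in N22 desiccation had a lowest value of 48.6%, a median of 76.6% and a highest of 100%. Levels in IR64 desiccation had a lowest value of 21.5%, a median of 42.6% and a highest of 63.9%. The control medians were 63.4% in N22 and 66.4% in IR64.

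The 73 core bins lower in N22 mirrored this pattern. Levels in N22 desiccation had a lowest value of 12.8%, a median of 44.8% and a highest of 73.9%. Levels in IR64 desiccation had a lowest value of 44.95%, a median of 76.9% and a highest of 100%. The control medians were 66.4% in N22 and 60.7% in IR64, so in both sets the control medians lay between the desiccation medians. The limits that set the core favour this order, so the levels in both sets are descriptions.

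**Figure D3:**
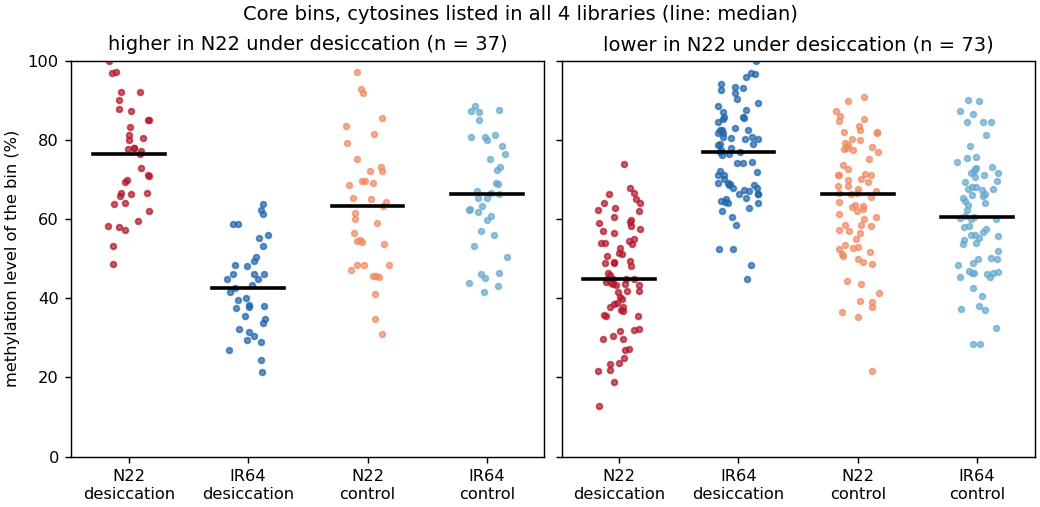
Methylation level in percent of each core bin in N22 desiccation, IR64 desiccation, N22 control and IR64 control, for the 37 bins higher in N22 (left) and the 73 lower in N22 (right); each point is a bin and the black line is the median. The desiccation medians are 76.6% and 42.6% on the left and 44.8% and 76.9% on the right.

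CHH sites were more frequent in core bins than over all bins tested in both pairs. Of the 1519 mCs of core bins listed in all 4 libraries, 55.4% were CHH, 31.4% CG and 13.2% CHG. CHH made up 28.3% of the mCs in control-flat bins, 58.4% in reverse core bins (the converse class described further on), 6.25% in bins called in both pairs in the same direction and 14.1% over all bins tested in both pairs. Core bins also held more sites and reads, with medians of 15 shared mCs and 223 reads, summed over mCs, in N22 desiccation. Over all bins tested in both pairs these medians were 9 and 133. The part of site and read counts in the CHH share was not tested. Inside the core bins the contexts mostly moved in the same direction, by unlike amounts. The 64 bins with 3 or more CHH sites all had a CHH difference of differences in the direction of the bin (median 37.1 points), as did 55 of 57 bins with 3 or more CG sites (median 28.2 points) and 23 of 24 with 3 or more CHG sites (median 23.4 points). It reached 20 points in 63 of these bins in CHH, 43 in CG and 14 in CHG. These values share the reads that chose the bins. Of the 196 core bins found with CHH alone, 47 (24.0%) were core bins over all contexts, where they made up 42.7%.

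In most core bins the levels of both cultivars had moved. N22 was lower and IR64 higher under desiccation than in their own controls in 70 of 110 core bins, and the reverse held in 36. By fixed limits, 64 bins moved on both sides (10 points or more in each cultivar, in opposite directions), 17 of them higher and 47 lower in N22. In 14 bins N22 moved by 20 points or more and IR64 by under 10, and 13 of these were lower in N22. In 20 bins IR64 moved by 20 points or more and N22 by under 10, and 17 of these were higher in N22. The remaining 12 were mixed. Over all bins, N22 was lower under desiccation than in control in 57.5% and IR64 higher in 51.0%. The limits that set the core favour opposite moves of the cultivars, so the counts in core bins are descriptions.

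Strands gave a reading with reads that had not chosen the bins, because a cytosine of each strand is read only by reads of that strand. Bins were chosen on the mCs of 1 strand and read on the other. Bins called in both pairs on the plus strand had a median desiccation difference of 30.6 points on the minus strand in the same direction, and those chosen on the minus strand had 30.8 points on the plus strand. Desiccation-only bins had 14.2 and 13.8 points, against 27.4 and 27.4 on the strands that chose them. The control difference on the same other strand was 13.8 and 13.4 points, so on reads that had not chosen them these bins differed nearly as much in control as under desiccation.

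Control-flat bins chosen on 1 strand had a median desiccation difference of 8.40 points on the minus and 7.25 points on the plus strand. Their control differences there were 7.30 and 6.88 points. The direction was kept in 76.4% and 75.7% of these bins, where 55.2% of all tested bins were higher in N22 on either strand. Core bins had 7.38 points (41 of 54 in the same direction) and 7.92 points (63 of 87), with control differences of 4.89 and 2.67 points on the same reads. Their difference of differences was 33.1 and 32.9 points on the choosing strand, against 3.87 points (32 of 53 in the same direction) and 3.001 points (53 of 83) on the other. Over all bins the difference of differences was negative in 55.3% on the minus and 55.2% on the plus strand. Most of the size of the control-flat and core differences was therefore not seen on the other strand.

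**Figure D4:**
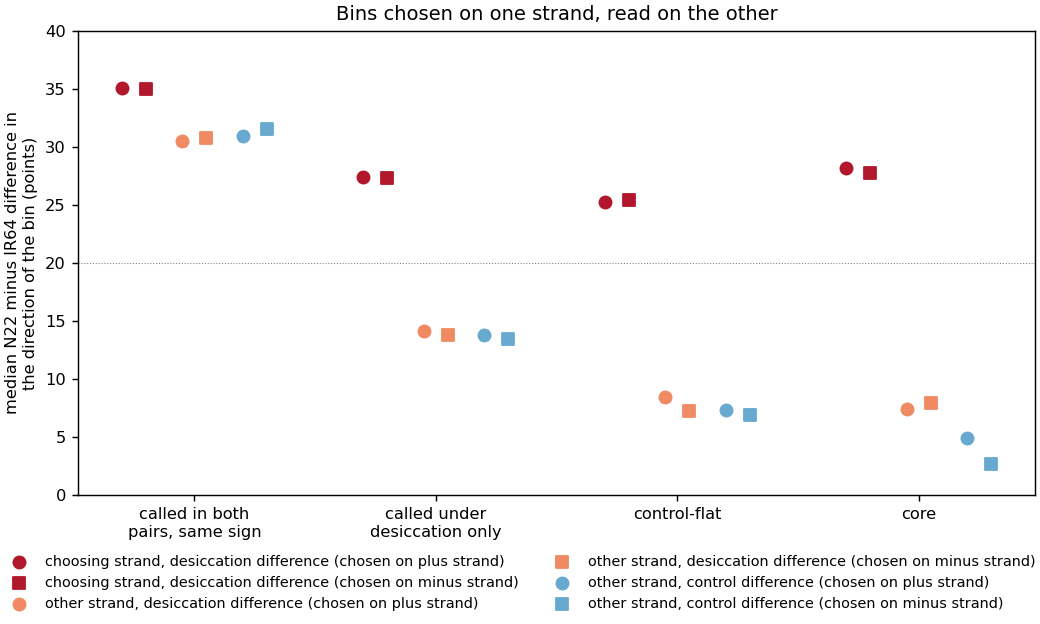
Median N22 minus IR64 difference in percentage points, in the direction of the bin, for 4 classes of bins chosen on the plus strand (circles) or the minus strand (squares); red is the desiccation difference on the choosing strand, orange the desiccation difference and blue the control difference on the other strand. The orange and blue points lie together at about 30.6 to 31.6 points for bins called in both pairs and fall to under 10 points for control-flat and core bins.

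Single bins are given by a rule that ranked core bins with a mean depth of 10 or more in each library, which 72 of the 110 met. The levels that follow are over mCs listed in all 4 libraries, the error is the standard error of the difference of differences, and the p of each is adjusted over all bins. The reads given are summed over these mCs, so they exceed the number of molecules. Bin 1, chromosome 1 at 12075301 to 12075400, ranked first on the N22 side among the bins that met the depth limits. Its level was 41.9% (186 reads) in N22 desiccation and 66.5% (191 reads) in IR64 desiccation, against 66.4% (134 reads) in N22 control and 56.7% (238 reads) in IR64 control. The difference of differences was -34.3 ± 7.16 points (binomial z test, adjusted p = 0.00155). It held 8 CHH and 2 CG sites, and 9 of the 10 were lower in N22 under desiccation, with the remaining site equal. Over mCs shared by the desiccation pair, the desiccation difference was -31.6 points with CHH alone and -4.26 points, not called, with CG alone. Outside the comparison, levels were 63.3% in IR64 salinity, 63.2% in Pokkali salinity and 51.0% in Pokkali control.

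Bin 2, chromosome 3 at 6808801 to 6808900, held CHH sites alone, 9 on the plus and 6 on the minus strand. All 15 were lower in N22 under desiccation. The level was 52.7% in N22 desiccation and 79.0% in IR64 desiccation, against 77.6% in N22 control and 71.7% in IR64 control, with a difference of differences of -32.2 ± 6.82 points (binomial z test, adjusted p = 0.00205). Levels in the libraries that had not chosen the bin were 83.9% in IR64 salinity, 76.4% in Pokkali salinity and 77.0% in Pokkali control, so N22 desiccation alone lay apart.

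Bin 3, chromosome 4 at 1751801 to 1751900, ranked first on the IR64 side among the bins that met the depth limits. Its 4 sites had a level of 97.2% (71 reads) in N22 desiccation and 41.7% (60 reads) in IR64 desiccation, against 91.8% (61 reads) in N22 control and 87.0% (54 reads) in IR64 control. The difference of differences was 50.8 ± 8.96 points (binomial z test, adjusted p = 4.76e-05). The sites were uneven in IR64 desiccation, with 13.6% at 1751838 and 85.7% at 1751837 on the opposite strand. At 1751838, IR64 control had 5 reads. With CG alone, or called again at an error rate of 1%, the desiccation difference was 39.9 points. It was still called, but the bin was not a core bin. IR64 salinity stood at 54.4% and Pokkali control at 94.5%, so both stressed IR64 libraries lay below the others with a value. With a molecule counted about once this bin was still called under desiccation, at 54.4 points (Fisher's exact, adjusted p = 0.000447).

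Bin 4, chromosome 11 at 1179801 to 1179900, held 6 CHG and 2 CG sites, all on the plus strand. Its level was 81.4% in N22 desiccation and 49.5% in IR64 desiccation, against 73.3% in N22 control and 80% in IR64 control (38.5 ± 8.41 points, binomial z test, adjusted p = 0.00429). Levels were 62.9% in IR64 salinity, 48.8% in Pokkali salinity and 53.4% in Pokkali control. With its sites on 1 strand, it has no reading on the other.

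Bins 5 and 6 were higher in IR64 desiccation than in the other 3 libraries of the comparison. Bin 5, chromosome 12 at 20015501 to 20015600, had 49.0% in N22 desiccation and 71.1% in IR64 desiccation, against 58.3% in N22 control and 46.5% in IR64 control (-34.0 ± 5.12 points, binomial z test, adjusted p = 9.19e-08). On the plus strand alone, with 5 of its 19 sites, its desiccation difference was 2.97 points in the opposite direction. With CHG alone it was -5.28 points and with CHH alone -25.8 points. The control-flat limit was read over mCs shared by the control pair, where the control difference of bin 5 was 9.98 points. Over mCs listed in all 4 libraries, bin 5 was not a core bin. Bin 6, chromosome 11 at 2456201 to 2456300, had 54.1% in N22 desiccation and 74.3% in IR64 desiccation, against 63.1% in N22 control and 53.6% in IR64 control (-29.8 ± 6.44 points, binomial z test, adjusted p = 0.00275). Of its 18 sites, 17 were lower in N22 under desiccation. The desiccation difference of bin 6 was -28.6 points with CHH alone and -6.69 points, not called, with CG alone. Pokkali salinity, at 76.6%, lay above IR64 desiccation in bin 6, and in bin 5 it stood at 54.9%.

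The bins chosen within a single context included the largest differences of differences among the named bins. Bin 7 (CG, chromosome 7 at 16073501 to 16073600) had 87.4% in N22 desiccation and 47.4% in IR64 desiccation, against 79.6% in N22 control and 78.6% in IR64 control, and all 6 sites were higher in N22 under desiccation. Both Pokkali libraries, at 39.8% in salinity and 28.6% in control, lay below IR64 desiccation in bin 7. Bin 8 (CG, chromosome 5 at 6307001 to 6307100) had 21.5% in N22 desiccation and 80.3% in IR64 desiccation, against 41.3% in N22 control and 46.9% in IR64 control, and Pokkali control, at 14.6%, lay below N22 desiccation. Its 4 sites, on both strands, lay between 19.2% and 24.0% in N22 desiccation and between 69.2% and 88.9% in IR64 desiccation. The ranges of the sites did not overlap, but these values chose the bin. The sites lie at 6307038 to 6307043, so the same reads can cover them. With a molecule counted about once bin 8 too was still called under desiccation (-57.8 points, Fisher's exact, adjusted p = 0.000178), but it was not a core bin.

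In CHG, bin 9 (chromosome 11 at 10113501 to 10113600) had 72.1% in N22 desiccation and 39.1% in IR64 desiccation, against 52.4% in N22 control and 59.7% in IR64 control. Bin 10 (chromosome 4 at 20719301 to 20719400) had 69.3% in N22 desiccation and 89.7% in IR64 desiccation, against 87.6% in N22 control and 80.3% in IR64 control. All 8 sites of bin 9 were higher in N22 under desiccation, and 8 of the 10 of bin 10 were lower. In CHH, bin 11 (chromosome 3 at 33033601 to 33033700) had 75.3% in N22 desiccation and 41.8% in IR64 desiccation, against 38.0% in N22 control and 53.1% in IR64 control. Over the mCs shared by the control pair its control difference was -4.50 points. Over mCs listed in all 4 libraries, bin 11 was not a core bin. Bin 12 (chromosome 2 at 29578301 to 29578400) had 39.5% (43 reads) in N22 desiccation and 85.7% (35 reads) in IR64 desiccation, against 61.0% (136 reads) in N22 control and 54.5% (33 reads) in IR64 control. On these few reads the difference of differences of bin 12 was -52.7 ± 13.3 points (binomial z test, adjusted p = 0.00918). Bins 11 and 12 had sites on 1 strand alone, 6 on the plus and 3 on the minus strand. In bins 9, 10 and 12 the 3 outside libraries lay between the desiccation levels of N22 and IR64, and in bin 11 both Pokkali libraries, at 34.0% in salinity and 33.3% in control, lay below IR64 desiccation.

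Read on each strand alone, the desiccation difference of several named bins came mainly from 1 strand. It was 18.2 points on the plus and 57.7 points on the minus strand in bin 7, -7.92 and -29.2 points in bin 6, and -9.64 and -25.3 points in bin 10, and the plus strand value was not called in these 3 bins. In bin 2 it was -30.7 points on the plus and -17.6 points on the minus strand, and in bin 9 it was 27.6 and 36.4 points, with the smaller value not called in either. Bin 1 was called on both strands, at -39.9 points on the plus and -21.1 points on the minus strand. Bins 3 and 8 had 2 sites on each strand, too few to be tested there.

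**Figure D5:**
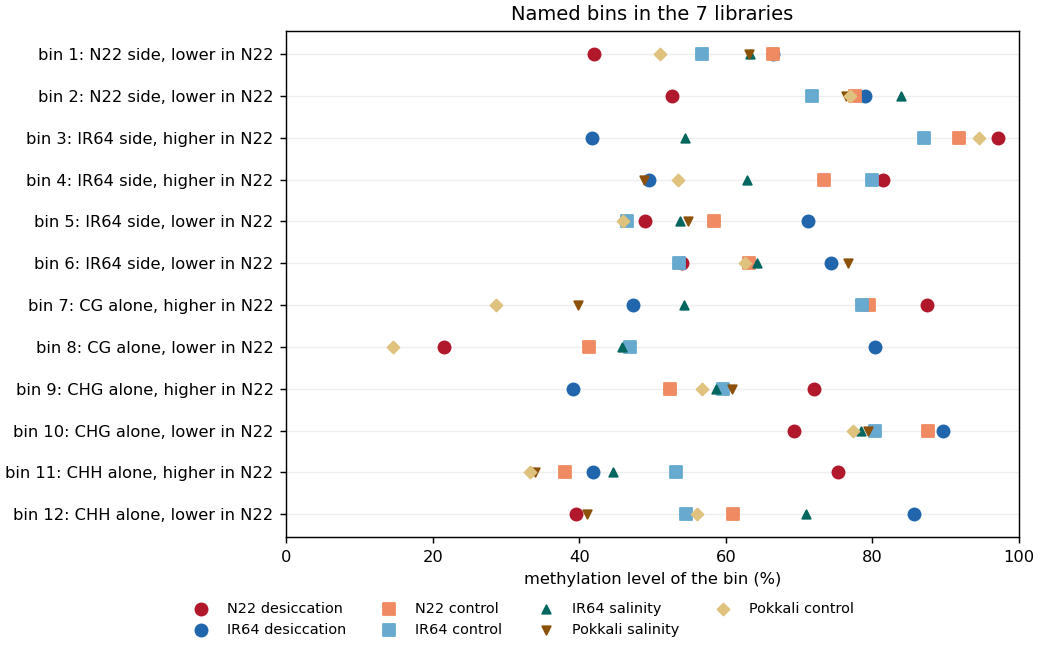
Methylation level in percent of bins 1 to 12 in the 7 libraries; large circles are the desiccation libraries, squares the control libraries of N22 and IR64, and small markers the libraries that had not chosen the bins. N22 and IR64 desiccation stand 20.3 to 58.8 points apart, and a marker is missing where fewer than 3 mCs were shared.

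The members were spread over all 12 chromosomes. Desiccation-only bins made up 1.16% of the bins tested in both pairs on chromosome 8, the lowest share, and 1.45% on chromosome 12, the highest. The control-flat share ran from 0.341% on chromosome 10 to 0.454% on chromosome 12, and the core share from 0.00333% on chromosome 9 (2 bins) to 0.0162% on chromosome 12 (10 bins). Methylation density was measured as CG mCs per 1 Mb in Pokkali control, a library outside the comparison. Over 4 classes of windows of rising density, desiccation-only bins made up 1.48%, 1.54%, 1.36% and 1.06% of tested bins, so the share was lowest in the densest class and highest in the second. Within 2 Mb of a chromosome end the share was 1.55%, against 1.29% elsewhere. Mean depth near the ends and elsewhere was 27.9 and 19.6 reads in N22 desiccation, 30.1 and 17.8 in IR64 desiccation, 36.3 and 22.3 in N22 control, and 26.6 and 17.3 in IR64 control, and its part in this share was not tested. All bins called under desiccation followed the same order, at 3.57%, 3.79%, 3.39% and 2.71% over the 4 classes and 3.91% against 3.19% at chromosome ends.

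Depth changed with density too. In CG-poor bins (5 or fewer CG mCs listed in Pokkali control) the mean depth was 19.8 reads in N22 desiccation, 18.1 in IR64 desiccation, 20.4 in N22 control and 18.3 in IR64 control. In CG-dense bins it was 20.98 in N22 desiccation, 19.9 in IR64 desiccation, 26.1 in N22 control and 18.3 in IR64 control. Desiccation-only bins made up 1.54% of CG-poor and 1.06% of CG-dense bins. Core bins lower in N22 were 50 of 73 in CG-poor and 23 of 37 in CG-dense bins, and the part of depth in these shares was not tested.

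None of the 110 core bins had another core bin within 10 bins. Of the 342 reverse core bins, 35 (10.2%) had another reverse core bin in the next bin. In the bins beside core bins, at 100 bp, 108 of 149 tested neighbours had a difference of differences in the same direction, with a median of 5.85 points, and at 300 bp 38 of 73 did, with a median of 0.388 points. Over all bins it was negative in 55.3% on the minus and 55.2% on the plus strand. These are shares of negative values on single strands, not of agreement with a core bin, so the measures differ. Adjoining bins can share the reads that chose the core bin, so the count at 100 bp is a description. Allowing a gap of 1 bin, the longest runs of desiccation-only bins held 4 bins. These lay on chromosome 7 at 9552501 to 9552900, chromosome 9 at 3814501 to 3815000 and chromosome 10 at 1953901 to 1954300, all lower in N22, and on chromosome 12 at 17347101 to 17347600, higher in N22. The last bin of the run on chromosome 7 (9552801 to 9552900) and of the run on chromosome 10 (1954201 to 1954300) was a core bin.

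The 3 libraries that had not chosen the bins were set beside the core bins. IR64 salinity was nearer to IR64 control than to IR64 desiccation in 19 of 37 core bins higher in N22 and in 38 of 71 lower in N22, where 49.7% of all bins were. It was nearer to N22 control than to N22 desiccation in 33 of 37 and 64 of 71, against 48.8% of all bins. IR64 salinity thus lay apart from N22 desiccation more often than from IR64 desiccation. Pokkali salinity was nearer to IR64 control than to IR64 desiccation in 28 of 31 bins higher and 39 of 62 lower in N22, and nearer to N22 control than to N22 desiccation in 18 of 31 and 48 of 62. For Pokkali control these counts were 20 of 33 and 48 of 65 for IR64, and 23 of 33 and 49 of 65 for N22. In the bins higher in N22, the order of the counts for IR64 and N22 was thus not the same in Pokkali salinity as in IR64 salinity. In the 17 bins where the IR64 level alone had moved and N22 was higher, the median was 60.6% in IR64 salinity, between 44.8% in IR64 desiccation and 74.0% in IR64 control. Choosing bins with an extreme level in a library places any other library nearer to the rest, so these counts are descriptions.

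The converse class was larger. Bins called in the control pair and not under desiccation numbered 15805, of which 13429 were higher in N22 control, where 3.18% of the bins tested in control were called higher and 0.615% lower in N22. Of the 15805, 5733 had a desiccation difference under 10 points. The same test as for the core left 342 reverse core bins, 324 (94.7%) higher in N22 control, beside the 110 core bins. In these 324 bins the median level was 57.2% in N22 desiccation and 60.3% in IR64 desiccation, against 73.8% in N22 control and 43.0% in IR64 control. They were also rich in CHH (58.4% of mCs), and with CHH alone 478 reverse core bins stood beside 196 core bins. The N22 level was lower under desiccation in 310 of 342 and the IR64 level higher in 315, moves that the limits of this class favour. Core bins lower in N22 and reverse core bins higher in N22 both have a negative difference of differences, and so had 1797 of the 2011 CHH bins that passed the test.

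Thresholds placed many bins near a limit. The 1652 bins called at 20 to 21 points had a median control difference of 15.0 points in the direction of the desiccation difference, and the 1769 bins that fell short at 19 to 20 points had 13.7 points. Across the limit of the control-flat class, 477 bins had a control difference of 9 to 10 points with a median desiccation difference of 25.3 points, and 516 had 10 to 11 points with 24.6 points. The 4386 bins that were not tested in control had too few shared mCs there. N22 control listed fewer than 3 mCs in 1520 of them (34.7%) and IR64 control in 2105 (48.0%), and 2711 were higher in N22 under desiccation. Genes and sequences at the bins were not analysed here.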

How the data were processed

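The authors deposited, for each library, the listed mCs with position, strand, context, read depth and methylation level. Depth was deposited as a read count without normalization, and the level was deposited as a percent. For the control libraries the authors kept uniquely aligned Bismark reads on the MSU rice genome without clonal copies, and called mCs with methylKit at a binomial p of 0.001 and a depth of 5 or more. For the stressed libraries the submitters' processing notes name Bismark and methylKit alone, and their genome build is not given in the sources used here. Between pairs of libraries, 99.987% to 99.998% of shared positions had the same context. Methylated reads were depth multiplied by level, rounded, and were whole in every case. Summed reads were tested per 100 bp bin in Python 3.11.15 (SciPy 1.17.1, NumPy 2.4.6, pandas 2.3.3, numba 0.67.0). For the difference of differences, 1 methylated and 1 unmethylated read were added to each library. The code was tested on simulated data. No annotation of the build was used, so gene lists and distances to genes were not analysed here. Named bins were the core bins with the largest difference of differences, up to 2 in each direction on the N22 side and on the IR64 side and the first in each direction within each context, at a mean depth of 10 or more and with no depth above the 99th percentile. No N22-side bin higher in N22 met this. The members, classes and lists were chosen with earlier results of these data known. Summed over their mCs, tested bins held a median of 121 reads in N22 desiccation and 111 in IR64 desiccation, which limits their precision.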

Additional observations from a re-analysis of the deposited data

Results flagged for a closer look

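The test of the desiccation difference against the control difference was passed by 1339 bins. Of these, 110 were core bins and 342 reverse core bins, classes set by further limits on the same values. A further 612 were called in neither pair. The same test singled out each named bin, by the desiccation minus the control difference. In points, it was -34.3 in bin 1, -32.2 in bin 2, 50.8 in bin 3, 38.5 in bin 4, -34.0 in bin 5 and -29.8 in bin 6. Within single contexts it was 39.1 in bin 7, -53.2 in bin 8, 40.2 in bin 9, -27.5 in bin 10, 48.6 in bin 11 and -52.7 in bin 12. Each group had 1 library, and with a molecule counted about once none of the 110 or the 342 passed.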

How the results depend on the processing

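No paired analysis was possible because each group had 1 library, and for the same reason no replicate could be left out. The counts below are in the order called under desiccation, desiccation-only, control-flat, core, reverse core and CHH core, and a count within 1.5 times of its value is not repeated. The values as reported were 35475, 12514, 3626, 110, 342 and 196. A minimum depth of 10 gave 66 core, 208 reverse core and 117 CHH core bins. A minimum difference of 10 points gave 19890 desiccation-only, 10075 control-flat, 262 core, 781 reverse core and 316 CHH core bins. At 30 points there were 20407 called, 6105 desiccation-only, 782 control-flat, 33 core, 108 reverse core and 55 CHH core bins. With 5 shared mCs there were 23514 called and 8101 desiccation-only bins. The plus strand alone gave 15849 called, 6708 desiccation-only, 2136 control-flat, 221 reverse core and 121 CHH core bins, and the minus strand alone 15854 called, 6718 desiccation-only and 2202 control-flat bins. CG alone gave 7813 desiccation-only, 1946 control-flat, 29 core (44.8% higher in N22) and 96 reverse core bins. CHG alone gave 12665 called, 5125 desiccation-only, 1248 control-flat, 6 core (50% higher in N22) and 21 reverse core bins, and CHH alone 4280 called, 2649 desiccation-only, 1266 control-flat and 196 core bins. A control-flat limit of 5 points gave 1612 control-flat, 57 core, 183 reverse core and 110 CHH core bins. Of the alternatives chosen after seeing the data, a molecule counted about once gave 6890 called, 2199 desiccation-only, 53 control-flat, 0 core, 0 reverse core and 0 CHH core bins. CG-poor bins held 21172 called, 7721 desiccation-only, 2238 control-flat and 71 core bins, and CG-dense bins 14254 called, 4776 desiccation-only, 1375 control-flat, 38 core, 112 reverse core and 28 CHH core bins. Leaving out depths above the 99th percentile, keeping mCs listed in all 4 libraries, calling again at an error rate of 1%, moving the grid by 50 bp and centring differences on their median kept every count within 1.5 times. The share of core bins higher in N22 ran from 25.8% to 50% over the alternatives. For the named bins, 127 of 153 alternative values kept the call, 25 kept the direction without the call, and bin 5 changed sign on the plus strand alone (2.97 points). The 127 include alternatives that could not remove a call, a minimum difference of 10 points and a control-flat limit of 5 points. They also include CG-poor or CG-dense bins alone, which left the reads of a bin unchanged. With a molecule counted about once, only bins 3 and 8 kept the call. The named bins met all the limits of a core bin in 96 of the 153. Apart from what each alternative leaves out by construction, the cause of a moved count was not tested.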
